A study of Mus musculus with 15 samples.

Results

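The 10 genes described here are immediate early and stress genes: Egr1, Egr2, Nr4a1, Atf3 and Klf6 (transcription factors), Ier2 (an immediate early nuclear protein), Dusp1, Zfp36 and Btg2 (inhibitors of signalling, mRNA stability and growth) and Cd69 (a surface receptor of leukocyte activation). They were taken by symbol, and each had 1 probe set annotated to that symbol alone, out of 19938 genes measured with such a probe set. The study sorted dendritic cell (DC) progenitors from mouse bone marrow at an earlier and a later stage and hybridised their RNA to Affymetrix arrays, to follow gene expression along DC development and without Batf3 or Id2. The later stage is Zbtb46-GFP+ cells with intermediate c-Kit, a progenitor that has switched on Zbtb46, a factor of the classical DC lineage read out by a GFP reporter. The earlier stage is the common DC progenitor (CDP), which can still form both plasmacytoid and classical DCs. All animals carried the Zbtb46-GFP reporter. Batf3 KO cells came from Batf3 KO Zbtb46-GFP reporter mice, Id2 KO cells from chimeric mice that were Id2 KO with Zbtb46-GFP, and WT cells from chimeric mice with Zbtb46-GFP, so that the kind of animal and the Batf3 genotype cannot be told apart. Ages, the host cells of the chimaeras and any pooling of animals are not given in the sources used here.

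There were 15 arrays, with 3 Zbtb46-GFP+ and 2 CDP arrays for each of Batf3 KO, Id2 KO and WT. The first replicate of the Zbtb46-GFP+ cells differed in scale in all 3 genotypes: its median signal over all probe sets was 23.8 to 24.1, against 101 to 112 on the other 12 arrays. All tests below therefore use the 12 arrays, 2 per group, and the 3 arrays are described on their own. Values are the deposited signal, an intensity on a linear scale, and fold changes are differences of log2 signal. A gene is called changed where limma's moderated test gave a Benjamini-Hochberg adjusted p under 0.05 over all 19938 genes in that comparison. Signals of different probe sets are not on a common scale, so no gene's level is set against another's.

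Immediate early genes are transcribed within minutes of a stimulus from factors already present in the cell, chiefly serum response factor with its ETS partners and CREB, downstream of MAP kinase and calcium signals. Their products include transcription factors that start the next wave of genes, and inhibitors that end the response: Dusp1 removes phosphate from MAP kinases, and Zfp36 (tristetraprolin) binds AU-rich elements and speeds the decay of inflammatory mRNAs. Several of them also respond to tissue dissociation and cell sorting in many cell types, and both stages here were released from bone, filtered, lysed of red cells and sorted into medium. The time from harvest to lysis is not given in the sources used here, and the part of handling in these values was not tested. In sorted bulk cells, fewer expressing cells and less RNA per cell cannot be told apart.

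The targeted genes and stage markers were checked first. In Zbtb46-GFP+ cells the log2 signal of Batf3 averaged 7.10 in Batf3 KO and 9.92 in WT, and that of Id2 averaged 8.61 in Id2 KO and 11.74 in WT. Averaged over the genotypes, 6 of 6 classical DC progenitor markers were higher in Zbtb46-GFP+ cells, and of 5 CDP markers 4 were lower. The 6 include the targeted genes. Batf3 in Batf3 KO had geometric mean signals of 138 in Zbtb46-GFP+ cells and 138 in CDPs, and Id2 in Id2 KO had 390 and 91.5. Zbtb46 itself had a geometric mean signal of 64.1 in Batf3 KO, 64.8 in Id2 KO and 136 in WT Zbtb46-GFP+ cells, against 57.6, 56.6 and 64.1 in CDPs of the same genotypes. Markers of other cells also moved with the stage: 5 of 6 neutrophil markers (S100a8, S100a9, Ngp, Camp and Ltf) were higher in Zbtb46-GFP+ cells, with a summed signal of 15251 to 39946 there against 3276 to 16397 in CDPs. T cell markers had summed signals of 371 to 495 in Zbtb46-GFP+ arrays and 304 to 362 in CDP arrays, with Cd5 called higher, and NK cell markers had 207 to 256 in Zbtb46-GFP+ arrays and 213 to 260 in CDP arrays. Of the monocyte and macrophage markers, Fn1 and Adgre1 were called higher in Zbtb46-GFP+ cells and F13a1 lower. Their summed signal was 850 to 3254 in Zbtb46-GFP+ arrays and 3635 to 4658 in CDP arrays. Of the B cell markers, Ms4a1 was called higher and Cd79b lower, with sums of 382 to 540 and 463 to 615 in the same order. Mcpt8 (mast cells and basophils) was called lower, with sums of 298 to 2593 and 504 to 3476. The part of these markers in the changes along the step was not tested. Xist and the Y-linked genes Kdm5d and Eif2s3y split every KO array from every WT array of the 12 (log2 Xist 5.06 to 5.71 in the knockouts, 11.93 to 12.42 in WT), so sex and genotype cannot be told apart in any comparison with WT.

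Between the CDP stage and Zbtb46-GFP+ cells, averaged over the 3 genotypes, 6 of the 10 genes rose and 1 fell, where 9.23% of all genes rose and 14.1% fell. Btg2, Dusp1, Zfp36, Nr4a1, Klf6 and Atf3 rose 1.89- to 2.98-fold, and Cd69 fell 7.39-fold, while Egr1, Egr2 and Ier2 did not pass the test. The median log2 change of the 10 genes was 1.01, against 0.03 over all genes. In 5 genes (Nr4a1, Atf3, Zfp36, Btg2 and Klf6) each of the 6 Zbtb46-GFP+ arrays lay above each of the 6 CDP arrays, as did 5.93% of all genes. Cd69 alone lay below on every array, as did 9.21% of all genes, and Dusp1, Egr1, Egr2 and Ier2 overlapped.

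**Figure D1:**
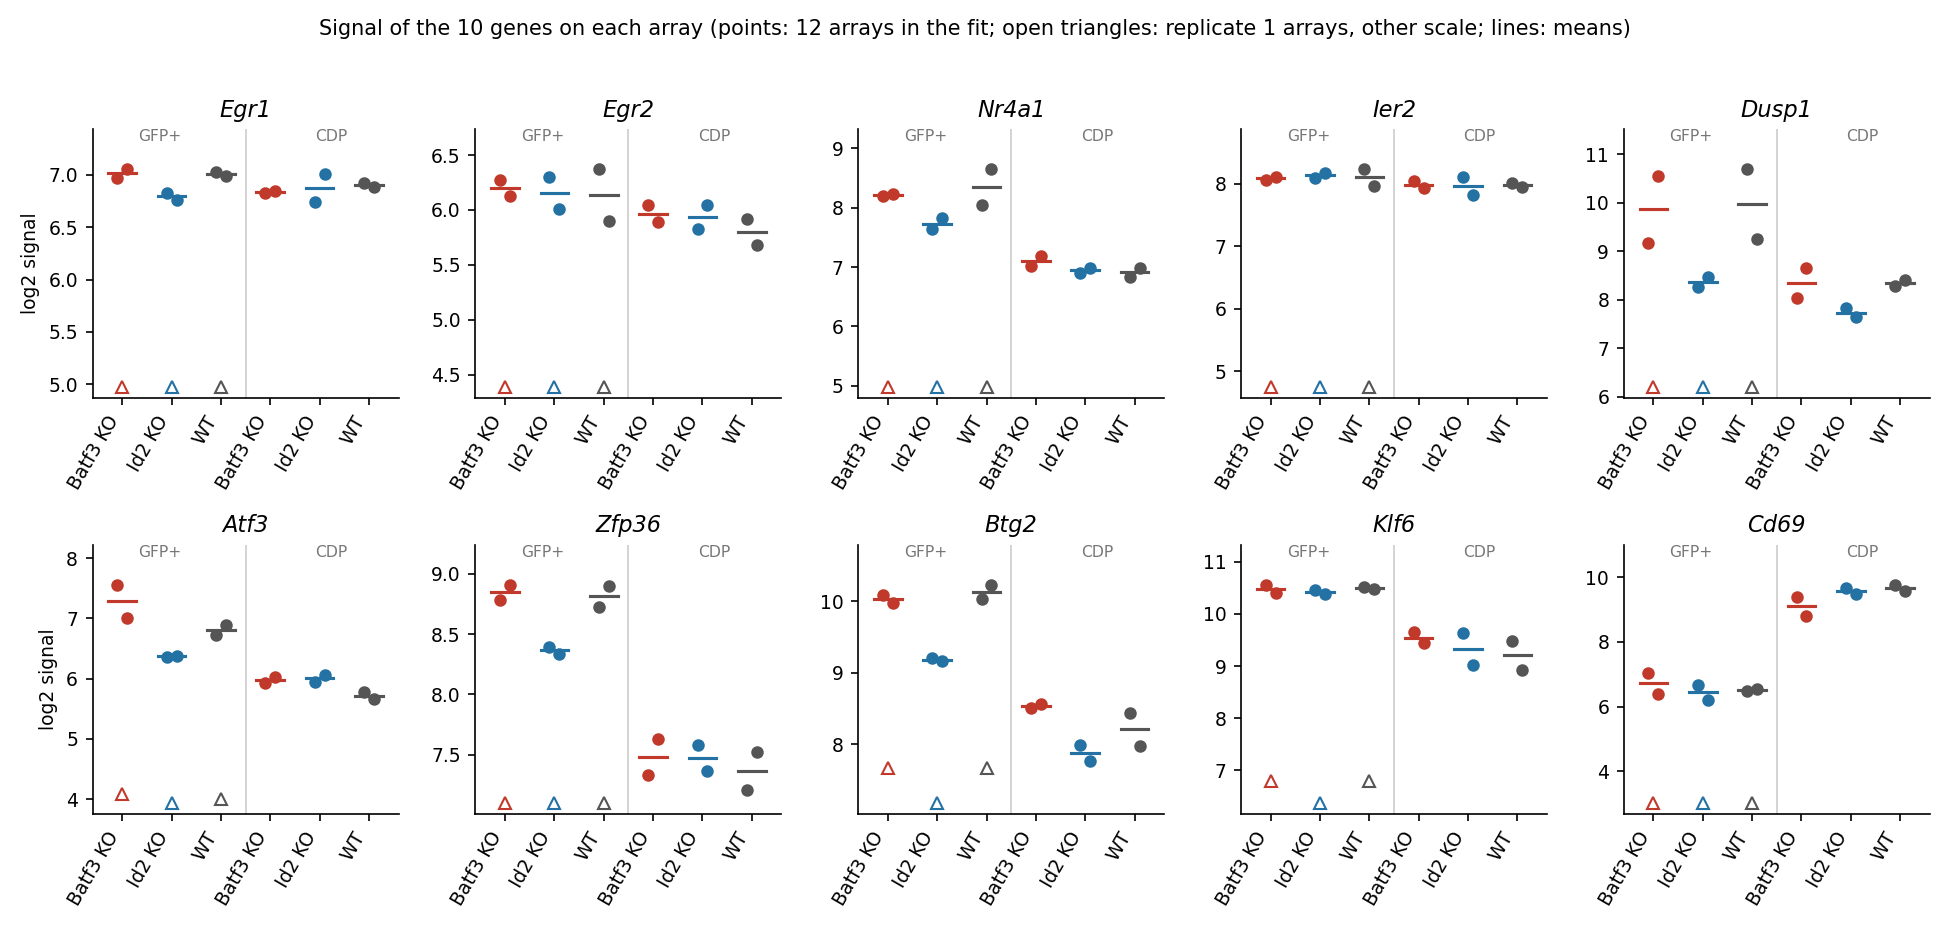
Log2 signal of each of the 10 genes on every array, with Zbtb46-GFP+ groups left of CDP groups in each panel and Batf3 KO, Id2 KO and WT from left to right. Filled points are the 12 arrays in the fit, lines are group means (n = 2), and open triangles are the 3 replicate 1 arrays on another scale; Btg2, Zfp36, Nr4a1, Klf6 and Atf3 sit higher in all Zbtb46-GFP+ points than in all CDP points, Cd69 sits lower, and the 2 points of Batf3 KO and of WT Zbtb46-GFP+ cells are far apart for Dusp1.

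The 250 bases before the annotated start of the 4 risen genes with the largest change are shown, as the control regions of the genes described next. The sequences are RefSeq's for GRCm38.p6, written 5′ to 3′ on the strand of the gene. Capitals mark the half-site of the cyclic AMP response element, TGACG or its reverse complement CGTCA, joined where copies overlap to the palindrome TGACGTCA, and the CArG box bound by serum response factor.
Btg2 (chr1:134079156-134079405, minus strand): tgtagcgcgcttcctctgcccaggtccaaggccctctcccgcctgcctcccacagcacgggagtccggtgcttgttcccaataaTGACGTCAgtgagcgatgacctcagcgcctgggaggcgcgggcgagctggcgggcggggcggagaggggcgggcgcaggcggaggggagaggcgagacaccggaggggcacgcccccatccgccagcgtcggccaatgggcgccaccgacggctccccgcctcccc
Dusp1 (chr17:26508473-26508722, minus strand): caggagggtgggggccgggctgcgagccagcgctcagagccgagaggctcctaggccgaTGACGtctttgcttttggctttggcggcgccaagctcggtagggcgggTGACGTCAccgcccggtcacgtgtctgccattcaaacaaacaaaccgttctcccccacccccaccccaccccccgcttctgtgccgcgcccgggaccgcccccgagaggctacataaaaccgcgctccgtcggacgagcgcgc
Zfp36 (chr7:28379229-28379478, minus strand): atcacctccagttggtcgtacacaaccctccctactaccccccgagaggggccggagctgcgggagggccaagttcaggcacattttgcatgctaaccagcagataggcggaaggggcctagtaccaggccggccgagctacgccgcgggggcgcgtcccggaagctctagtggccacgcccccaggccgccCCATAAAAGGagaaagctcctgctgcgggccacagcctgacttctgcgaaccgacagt
Nr4a1 (chr15:101266596-101266845, plus strand): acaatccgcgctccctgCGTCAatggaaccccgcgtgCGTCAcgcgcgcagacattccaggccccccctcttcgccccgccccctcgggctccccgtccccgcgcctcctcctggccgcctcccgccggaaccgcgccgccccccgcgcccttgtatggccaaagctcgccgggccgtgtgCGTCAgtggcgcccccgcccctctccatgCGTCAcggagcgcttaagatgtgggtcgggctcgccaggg
The table of promoters held 7 of the 10 genes, and the half-site was found on either strand in 5 of them (Egr2, Nr4a1, Dusp1, Atf3 and Btg2), against 19.8% of all genes with a window of this length in the table. Nr4a1 has 4 separate copies, which begin at positions -233, -213, -69 and -40 from the start. The full palindrome stands at -143 in Dusp1 and at -166 in Btg2, and 1.77% of genes hold it. A CArG box begins at -58 in Zfp36, and the box is also in Egr2, against 1.62% of genes. The site of the EGR factors themselves, GCGNGGGCG on either strand, was found in Nr4a1 at -60, Zfp36 at -105 and Btg2 at -131, against 5.33% of genes. Egr2, whose promoter holds both the half-site and the CArG box at some of its 5 listed starts, did not pass the test along the step. These matches describe letters in the window and say nothing of binding in these cells.

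Btg2, an antiproliferative member of the BTG/TOB family that recruits the deadenylation machinery to mRNAs, rose most. Its gene lies at chr1:134074865-134079155. Signals were 1088 and 1009 in Batf3 KO arrays, 589 and 571 in Id2 KO arrays and 1044 and 1204 in WT arrays of Zbtb46-GFP+ cells, against 365 and 379 in Batf3 KO arrays, 253 and 218 in Id2 KO arrays and 348 and 252 in WT arrays of CDPs. The Id2 KO pair was the lowest of the Zbtb46-GFP+ pairs, yet above every CDP array. The mean log2 change was 1.57 ± 0.09 (SE; 2.98-fold; limma adjusted p = 8.49e-07). It passed the test in each genotype, at 1.49 in Batf3 KO, 1.30 in Id2 KO and 1.92 in WT.

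Zfp36 (chr7:28376784-28379228) also had its lowest Zbtb46-GFP+ pair in Id2 KO. Its signals were 440 and 481 in Batf3 KO arrays, 337 and 323 in Id2 KO arrays and 423 and 478 in WT arrays of Zbtb46-GFP+ cells, against 161 and 198 in Batf3 KO arrays, 192 and 165 in Id2 KO arrays and 148 and 184 in WT arrays of CDPs. CDPs of the 3 genotypes overlapped one another, and the lowest Zbtb46-GFP+ array stood well clear of them. The mean log2 change was 1.23 ± 0.09 (SE; 2.35-fold; limma adjusted p = 3.76e-06), with 1.37 in Batf3 KO, 0.89 in Id2 KO and 1.45 in WT, each past the threshold. Without Id2 KO Zbtb46-GFP+ replicate 2 the Id2 KO step no longer passed (limma adjusted p = 0.0667).

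Nr4a1 (Nur77, an orphan nuclear receptor and a reporter of antigen receptor and MAP kinase signals; chr15:101253902-101274795) had signals of 294 and 299.8 in Batf3 KO arrays, 199.8 and 227 in Id2 KO arrays and 265 and 403 in WT arrays of Zbtb46-GFP+ cells. In CDPs they were 130 and 146 in Batf3 KO arrays, 119.8 and 127 in Id2 KO arrays and 114 and 126 in WT arrays. The 6 CDP arrays lay close together, and the widest pair was WT Zbtb46-GFP+. The mean log2 change was 1.11 ± 0.10 (SE; 2.16-fold; limma adjusted p = 1.92e-05), with 1.11 in Batf3 KO, 0.79 in Id2 KO and 1.44 in WT, all past the threshold. The Id2 KO step lost its call without any one of its 4 arrays (limma adjusted p 0.0688 to 0.191).

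Klf6, a zinc finger factor of wound and inflammatory responses (chr13:5861489-5870393), had signals of 1511 and 1354 in Batf3 KO arrays, 1403 and 1330.1 in Id2 KO arrays and 1456 and 1415 in WT arrays of Zbtb46-GFP+ cells, against 804 and 693 in Batf3 KO arrays, 792 and 516 in Id2 KO arrays and 719 and 483 in WT arrays of CDPs. The 3 genotypes reached nearly the same level in Zbtb46-GFP+ cells. The spread lay in the CDP pairs. The mean log2 change was 1.11 ± 0.13 (SE; 2.15-fold; limma adjusted p = 8.56e-05), with 0.94 in Batf3 KO, 1.10 in Id2 KO and 1.28 in WT. Each passed the test, but the Batf3 KO step did not without any one of its 4 arrays (limma adjusted p 0.0861 to 0.157), nor the Id2 KO step without 3 of its 4 (0.0704 to 0.0987).

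Atf3, a stress-induced repressor of the ATF/CREB family (chr1:191170296-191183333), had low signals of 189 and 129 in Batf3 KO arrays, 82.4 and 83.1 in Id2 KO arrays and 106 and 118 in WT arrays of Zbtb46-GFP+ cells. In CDPs they were 61.0 and 65.4 in Batf3 KO arrays, 61.7 and 67.1 in Id2 KO arrays and 54.8 and 50.4 in WT arrays. The 3 Zbtb46-GFP+ pairs did not overlap one another, with Batf3 KO highest and Id2 KO lowest. The mean log2 change was 0.92 ± 0.10 (SE; 1.89-fold; limma adjusted p = 5.06e-05). The step passed in Batf3 KO (1.30) and WT (1.09) and not in Id2 KO (0.36, 95% interval -0.01 to 0.74, limma adjusted p = 0.314).

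Dusp1 (chr17:26505591-26508472) had the most uneven signals of the set: 578 and 1508 in Batf3 KO arrays, 308 and 354 in Id2 KO arrays and 1659 and 611 in WT arrays of Zbtb46-GFP+ cells, against 264 and 401 in Batf3 KO arrays, 228 and 199 in Id2 KO arrays and 313 and 340.5 in WT arrays of CDPs. One array each of Batf3 KO and WT Zbtb46-GFP+ cells stood far above its partner, and both Id2 KO arrays lay within the range of the CDPs. The mean log2 change was 1.26 ± 0.27 (SE; 2.39-fold; limma adjusted p = 0.00528). By genotype it was 1.52 in Batf3 KO (limma adjusted p = 0.0826), 0.63 in Id2 KO (0.659) and 1.63 ± 0.46 in WT (0.0469). The Batf3 KO step was 2.21 (limma adjusted p = 0.0256) without its Zbtb46-GFP+ replicate 2 and 0.83 (0.588) without replicate 3, and it passed with a block for the array of higher 75th percentile of signal in each group (0.00805). The WT call stood at the threshold and was kept in only 3 of 12 fits that each left out 1 array. Without WT Zbtb46-GFP+ replicate 2 the WT change was 0.90 (limma adjusted p = 0.313).

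Cd69 is a C-type lectin of recently activated leukocytes that holds cells in tissue by removing the S1P receptor from the surface (chr6:129267324-129275375). It ran against the genes of the set that rose. Signals were 133 and 84.5 in Batf3 KO arrays, 103 and 73.2 in Id2 KO arrays and 89.5 and 93.4 in WT arrays of Zbtb46-GFP+ cells, against 672 and 444 in Batf3 KO arrays, 816 and 712 in Id2 KO arrays and 874 and 758 in WT arrays of CDPs. The lowest CDP array, at 444, stood far above the highest Zbtb46-GFP+ array, at 133. The log2 change was -2.89 ± 0.14 (SE; limma adjusted p = 2.57e-07), with -2.37 in Batf3 KO, -3.14 in Id2 KO and -3.15 in WT, all past the threshold. S1pr1, the receptor that Cd69 removes, had a log2 change of 0.27 (95% interval 0.07 to 0.47) that missed the threshold (limma adjusted p = 0.0517).

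Egr1, Egr2 and Ier2, which are among the first genes to answer a growth factor or antigen signal, were nearly level. Egr1 (chr18:34861207-34864956) had signals of 108 to 133 on the 6 Zbtb46-GFP+ arrays and 107 to 129 on the 6 CDP arrays, and its log2 change was 0.07 (95% interval -0.09 to 0.23). Ier2 (chr8:84661331-84662852) had 249.8 to 301 in Zbtb46-GFP+ cells and 226 to 276 in CDPs, with a change of 0.13 (-0.05 to 0.31). Egr2 (chr10:67534469-67542188) had 59.7 to 82.9 in Zbtb46-GFP+ cells and 51.3 to 65.9 in CDPs, with a change of 0.26 (0.03 to 0.50, limma adjusted p = 0.102). The intervals of Egr1 and Ier2 leave no room for changes of signal of the size seen in Btg2, Zfp36 or Nr4a1. They bound the signal of the probe set only. Egr1 lay near the array medians of 101 to 112 and Egr2 below them, no background filter was applied, and whether these probe sets follow their RNA was not tested. Egr2 passed with the replicate number as a block (limma adjusted p = 0.0422) and without WT Zbtb46-GFP+ replicate 3 (change 0.34, adjusted p = 0.0280).

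**Figure D2:**
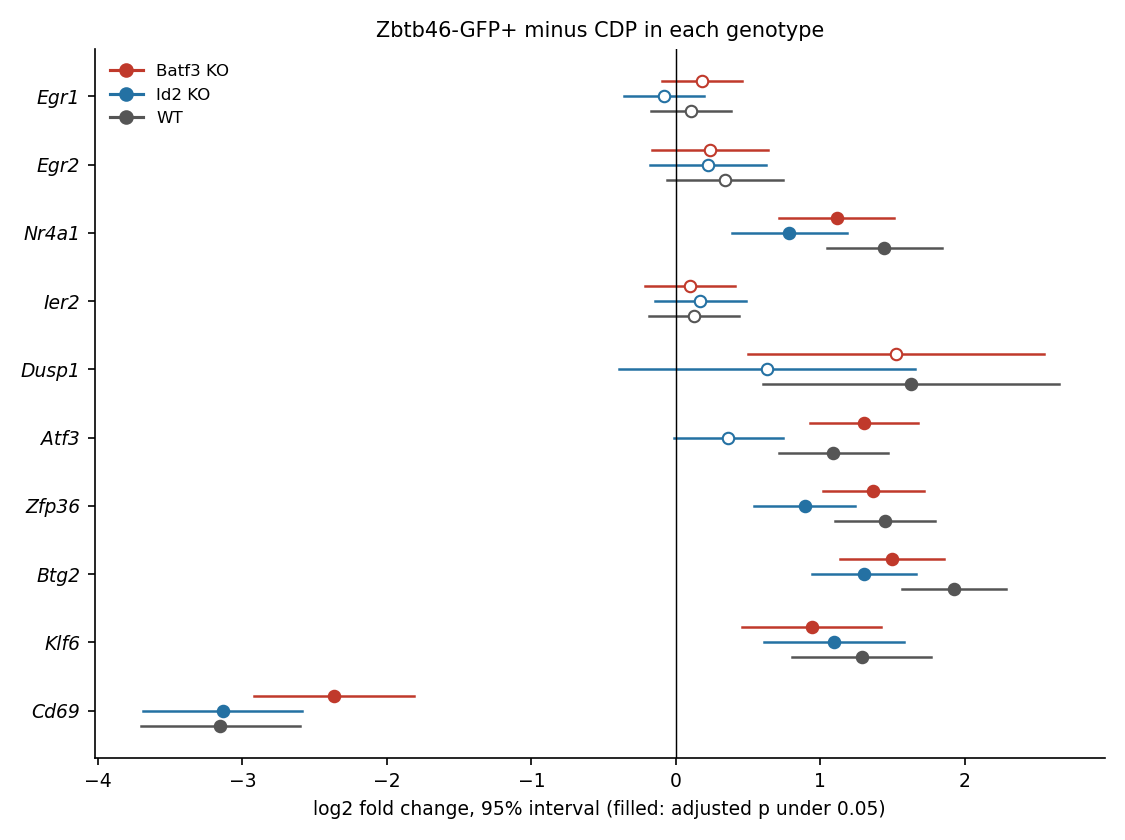
Log2 fold change of each gene from CDP to Zbtb46-GFP+ cells (x axis) in Batf3 KO, Id2 KO and WT, with 95% intervals from the limma fit and filled points where the adjusted p was under 0.05. The WT estimate is the highest of the 3 for Btg2, Zfp36, Nr4a1, Klf6 and Dusp1, Cd69 lies between -3.15 and -2.37, and Egr1, Egr2 and Ier2 lie near 0 in each genotype.

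Counted by genotype, 5 genes rose and Cd69 fell in Batf3 KO, where 3.87% of all genes rose and 3.32% fell. In Id2 KO, 4 rose (Btg2, Klf6, Zfp36 and Nr4a1) and Cd69 fell, where 3.84% of all genes rose and 2.98% fell. In WT, 6 rose and Cd69 fell, where 4.71% of all genes rose and 6.38% fell. The median change of the 10 genes was 1.02 in Batf3 KO, 0.50 in Id2 KO and 1.19 in WT, and that over all genes was 0.01, 0.01 and 0.03 in the same order.

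The arrays of a group differed in a way that touches Dusp1. Pooled over the 6 groups, its within-group SD was 0.61 on the log2 scale, higher than in 99.7% of all genes, whose median was 0.17. Cd69 had 0.30 and Klf6 0.26, and Egr1 had 0.08. Each group held 1 array with a higher and 1 with a lower 75th percentile of signal over all probe sets (369 to 410 against 327 to 355). Dusp1 was lower on the array with the higher percentile by 1.38 in Batf3 KO and 1.44 in WT Zbtb46-GFP+ cells, and by 0.20 in Id2 KO Zbtb46-GFP+ cells. In CDPs that difference was -0.60 in Batf3 KO, 0.20 in Id2 KO and -0.12 in WT. Cd69 was higher on that array in 6 of 6 groups, by 0.06 to 0.65. The neutrophil marker sum on the WT Zbtb46-GFP+ arrays was 15251 on replicate 2 and 17225 on replicate 3, beside Dusp1 signals of 1659 and 611. On the Batf3 KO pair it was 28544 and 19978, beside Dusp1 signals of 578 and 1508. On the Id2 KO pair it was 38600 and 39946, beside 308 and 354, so both were higher on the same array. In CDPs it was 6366 and 3276 in Batf3 KO, beside Dusp1 signals of 264 and 401. It was 16397 and 5462 in Id2 KO CDPs, beside 228 and 199, and 9709 and 4577 in WT CDPs, beside 313 and 340.5. What sets the arrays of a group apart was not tested.

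**Figure D3:**
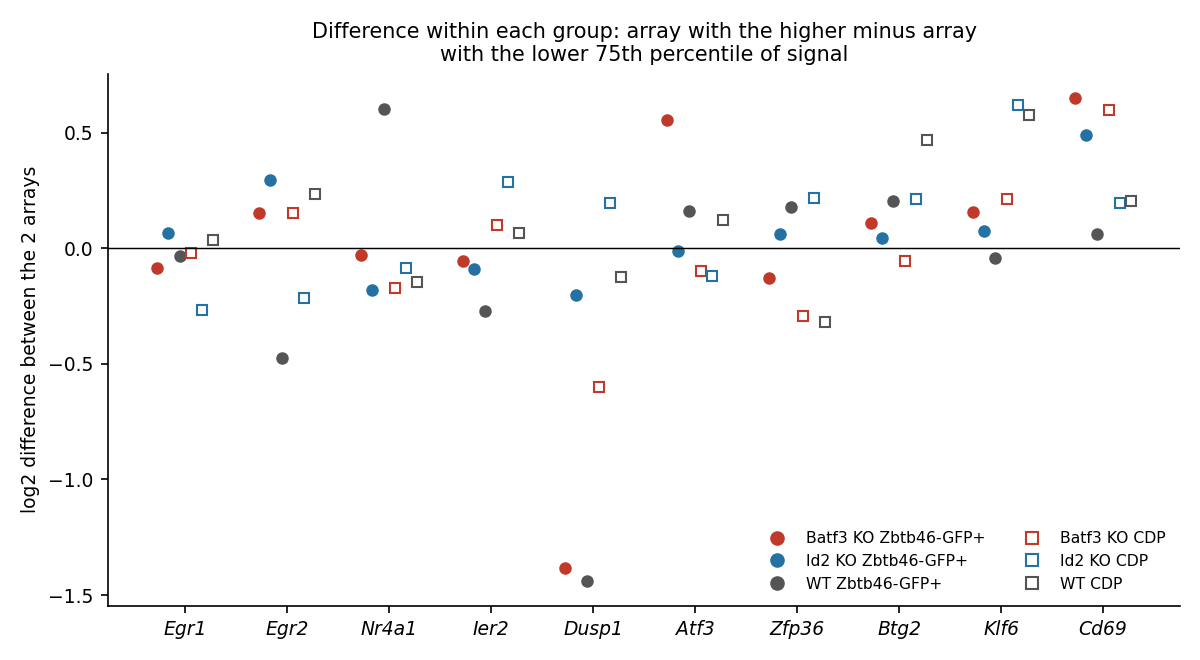
Log2 difference between the 2 arrays of each group (higher minus lower 75th percentile of signal) for each of the 10 genes, with circles for Zbtb46-GFP+ groups and squares for CDP groups. The Dusp1 circles of Batf3 KO (-1.38) and WT (-1.44) are farthest from 0, and all 6 Cd69 points lie above 0.

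Taken separately within the arrays of higher and of lower percentile (1 array per group), the mean step kept its sign in each set for the 7 called genes. It was 1.53 and 1.62 for Btg2, 1.32 and 1.15 for Zfp36, 1.25 and 0.98 for Nr4a1 and 1.05 and 0.79 for Atf3, with the set of higher percentile given first. For Klf6 it was 0.90 and 1.31, and for Cd69 -2.85 and -2.92. Dusp1 had 0.84 and 1.68, so that the size of its change depended on the set of arrays. Ier2 had -0.01 and 0.28.

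Across the 12 arrays the 15 pairs of the 6 risen genes had Pearson's r of 0.632 to 0.970, and a positive r follows from their being the genes that rose between the stages. With each group's mean taken away, the same pairs ran from -0.758 to 0.791. With 2 arrays per group these values are too few to tell whether the genes moved together within groups. The genes whose pattern over the 12 arrays was most like each changed gene had r of 0.926 to 0.996. They were picked for the highest r of all genes, and many genes share the change between the stages. A high r therefore follows from the choice, and the names are a description only. The nearest genes were Cyp27a1, Gramd3 and Rgs2 for Btg2 (r = 0.984, 0.984 and 0.980), Mx1, Ifitm3 and Cd2ap for Zfp36 (0.988, 0.980 and 0.980), and Aph1c, Tbc1d9 and Itga4 for Nr4a1 (0.984, 0.984 and 0.982). For Klf6 they were Dnajb14, Gch1 and Myadm (0.990, 0.989 and 0.988), and for Atf3 Slc7a7, Cd4 and Ehf (0.978, 0.975 and 0.970). For Cd69 they were Aopep, Elovl6 and Gart (0.996, 0.992 and 0.990). Dusp1 had the least similar nearest genes, Cdh16, Tmsb10 and Zfp663 (0.938, 0.936 and 0.926).

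The counts of the lists below stand beside 9.23% of all genes that rose and 14.1% that fell along the mean step. Other immediate early genes were split. Of 24 measured, 6 rose and 3 fell along the mean step, with a median change of 0.12. Sgk1, a serum- and glucocorticoid-induced kinase, had the largest rise (2.58 ± 0.09 SE, limma adjusted p = 2.13e-08), followed by Ier5 (1.42) and Junb (1.15), an AP-1 subunit. Rhob, a stress-induced small GTPase, fell by 1.68. The AP-1 genes most often read as a sign of recent stimulation did not pass: Fos had a change of 0.22 (limma adjusted p = 0.206), Fosb 0.11 and Jun 0.10. Nor did the close relatives of the named receptors and factors, Egr3 (0.16) and Nr4a3 (0.20), while Nr4a2 fell by 0.52.

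Of 20 relatives of the feedback genes measured, 6 rose and 2 fell, with a median of -0.03. Zfp36l1, a sister of Zfp36 in AU-rich mRNA decay, rose by 2.32 and Zfp36l2, the third sister, fell by 0.27 (limma adjusted p = 0.0399). The MAP kinase phosphatases Dusp16 and Dusp10 rose by 1.91 and 1.33 and Dusp2 fell by 0.71, and Tob1 and Btg1, of the family of Btg2, rose by 0.72 and 0.54. Of 15 genes of NF-kB feedback measured, 10 rose and 0 fell (also 0 at an unadjusted p under 0.05 by limma), with a median of 0.72. They include Relb (1.25), Nfkb2 (1.11), Il1b (1.05) and the inhibitor Nfkbie (0.83), and Tnf had a change of 0.07 (limma adjusted p = 0.775).

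Stress programmes outside the immediate early set gave other pictures. Of 11 heat shock genes measured, 0 rose (also 0 at an unadjusted p under 0.05 by limma) and 5 fell, with a median of -0.24. The mitochondrial chaperonin Hspd1 fell by 0.94, Hsp90aa1 by 0.47 and Hspe1 by 0.43, and Hspa1a, the inducible HSP70, had a change of 0.15 (95% interval -0.37 to 0.66). Hsf2 fell by 0.53. Of 12 genes of the integrated stress response, 2 rose (Ddit4 by 0.99 and Sesn2 by 0.51), and Atf4 and Ddit3 had changes of 0.01 and 0.32 that did not pass. Of 10 p53 targets measured, 1 rose (Plk3, 0.62) and 2 fell (Aen by 0.42 and Phlda3 by 0.34), near the shares of all genes. Of 14 serum response and MAP kinase regulators measured, 3 rose (Mrtfa 0.99, Rps6ka3 0.74 and Map2k1 0.46) and 2 fell, with Elk3, an ETS partner of serum response factor, lowest at -1.19. Srf itself had 0.14 and Elk1 0.14, neither past the threshold. The calls of Aen, Hsf2, Hspe1 and Map2k1 were lost without at least 1 array (limma adjusted p up to 0.131).

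**Figure D4:**
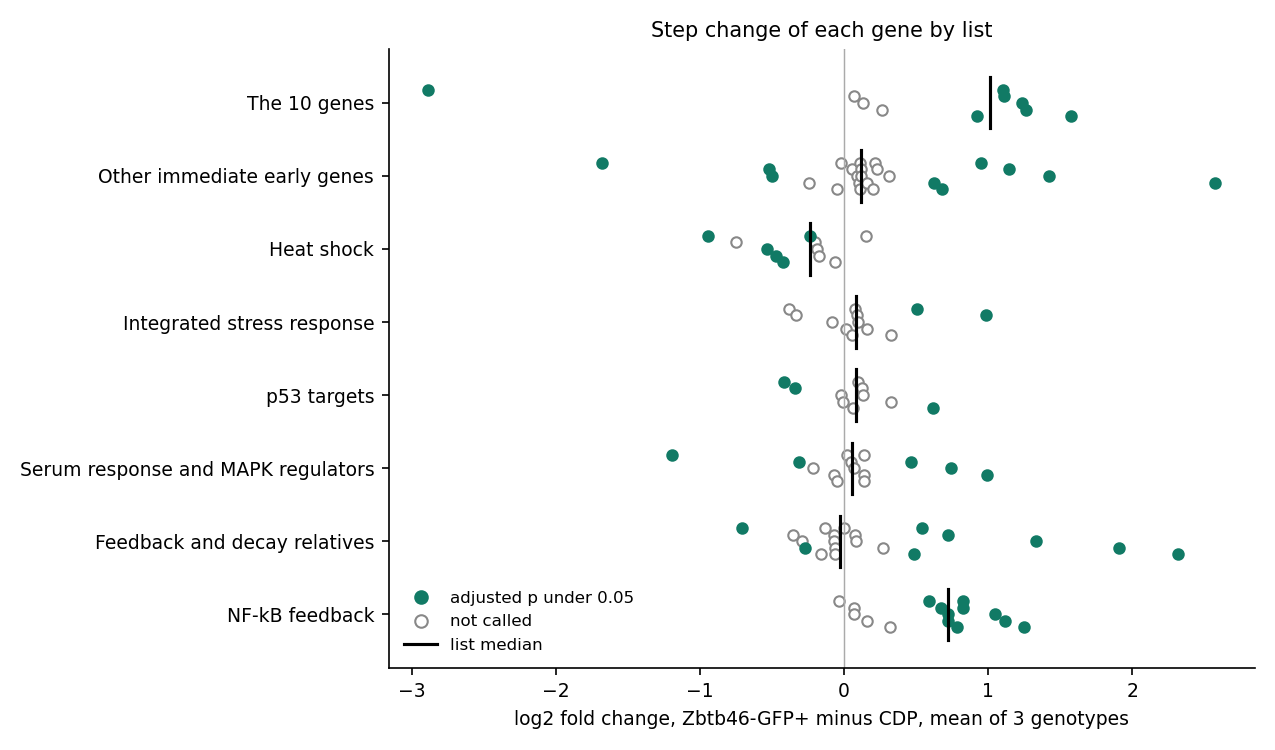
Log2 fold change from CDP to Zbtb46-GFP+ cells, mean of the 3 genotypes (x axis), for every measured gene of the 10 described genes and of the 7 other lists, with filled points where the limma adjusted p was under 0.05 and bars at list medians. The 10 genes have a median of 1.01 and NF-kB feedback 0.72, the heat shock points that passed all lie below 0, and the other immediate early genes spread from Rhob (-1.68) to Sgk1 (2.58).

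Loss of Batf3 or Id2 was next set against WT within each stage. Both comparisons use the same WT arrays, so their values are given side by side and not set against each other. In CDPs 0 of the 10 genes were called in Batf3 KO (0.0502% of all genes called; 1 member at an unadjusted p under 0.05, against 1.29% of all genes) and 0 in Id2 KO (0.0251% of all genes called; 0 members unadjusted, against 0.632% of all genes), by limma. Changes ran from -0.57 (Cd69) to 0.34 in Batf3 KO CDPs and from -0.61 (Dusp1) to 0.29 in Id2 KO CDPs.

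In Batf3 KO Zbtb46-GFP+ cells 0 of the 10 genes were called against WT (0.336% of all genes called; 1 member at an unadjusted p under 0.05, against 4.45% of all genes, by limma). That gene was Atf3, with signals of 189 and 129 in Batf3 KO and 106 and 118 in WT and a log2 change of 0.48 (95% interval 0.11 to 0.85, limma adjusted p = 0.719). The other 9 had changes of -0.14 to 0.21. Btg2 gave 1088 and 1009 in Batf3 KO and 1044 and 1204 in WT, and the groups overlapped.

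In Id2 KO Zbtb46-GFP+ cells Btg2 fell against WT and was the only one of the 10 genes called, where 0.717% of all genes were called lower. Its signals of 589 and 571 in Id2 KO lay well below 1044 and 1204 in WT, a log2 change of -0.95 ± 0.16 (SE; 95% interval -1.31 to -0.59; limma adjusted p = 0.0129). The call was lost without Id2 KO replicate 2 (-0.97, adjusted p = 0.107), Id2 KO replicate 3 (-0.93, 0.126) or WT replicate 3 (-0.85, 0.0841), with the size nearly kept. Within the arrays of higher and of lower 75th percentile the difference was -1.03 and -0.87. Btg2 in CDPs was also lower in Id2 KO (253 and 218) than one of the WT arrays (348 and 252), and the difference of the 2 steps, -0.62, did not pass (limma adjusted p = 0.728).

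None of the other 9 genes passed the test in Id2 KO Zbtb46-GFP+ cells. Dusp1 gave 308 and 354 in Id2 KO and 1659 and 611 in WT, a change of -1.61 (95% interval -2.63 to -0.58, limma adjusted p = 0.158). Nr4a1 gave 199.8 and 227 in Id2 KO and 265 and 403 in WT, a change of -0.62 (adjusted p = 0.166). The groups of both genes did not overlap, and the sizes turned on the WT array used. The Dusp1 change was -2.33 (limma adjusted p = 0.0344) without WT replicate 3 and -0.89 (0.629) without WT replicate 2. The Nr4a1 change was -0.32 (limma adjusted p = 0.515) without WT replicate 3 and -0.92 (0.0215) without WT replicate 2. With a block for the array of higher percentile, the Dusp1 change of -1.61 passed (limma adjusted p = 0.0142). Zfp36 (-0.45, 0.307), Atf3 (-0.43, 0.391) and Egr1 (-0.21, 0.771) were also below WT on both arrays, and Cd69 (-0.08), Egr2 (0.02) and Ier2 (0.03) overlapped it. Klf6 was also below WT on both arrays, but with a change of -0.07 (95% interval -0.56 to 0.41). In all, 7 of the 10 genes lay below WT on both Id2 KO arrays, as did 16.4% of all genes, and 5 had an unadjusted p under 0.05, as did 9.29% of all genes. The median change of the 10 genes was -0.32, against -0.02 over all genes.

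**Figure D5:**
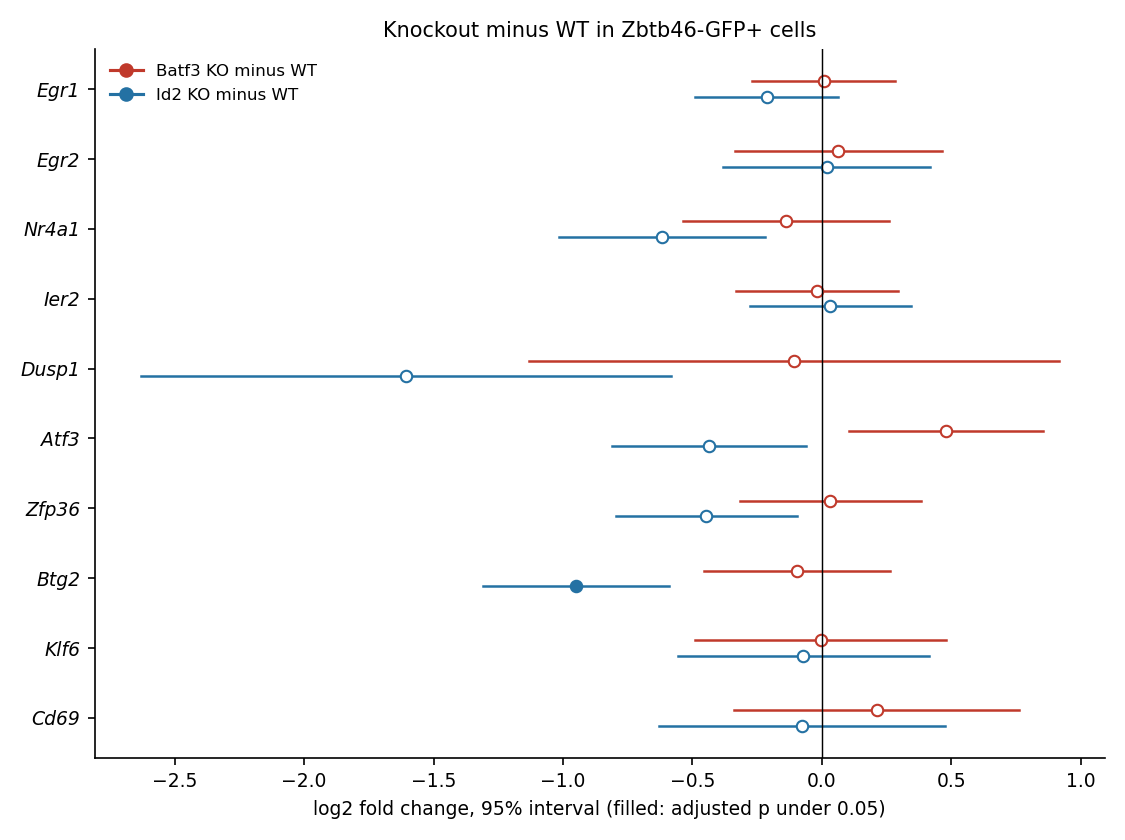
Log2 difference from WT in Zbtb46-GFP+ cells (x axis) for Batf3 KO and Id2 KO, with 95% intervals from the limma fit and filled points where the adjusted p was under 0.05. Btg2 in Id2 KO (-0.95) is the one filled point, Dusp1 in Id2 KO is lowest at -1.61 with the widest interval, and the Batf3 KO points lie near 0 except Atf3 at 0.48.

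Markers of other cells differed in the same comparison. The neutrophil marker sum was 38600 and 39946 on the Id2 KO and 15251 and 17225 on the WT Zbtb46-GFP+ arrays, with 0 of 6 markers called by limma and 4 higher at an unadjusted p under 0.05. The mast cell and basophil sum was 1963 to 2593 in Id2 KO and 298 to 881 in WT, with Mcpt8 called, and the monocyte and macrophage sum 2099 to 2195 in Id2 KO and 850 to 1228 in WT, with F13a1 called. The CDP markers Csf1r and Cd93 were called higher in Id2 KO. Of the 6 classical DC progenitor markers, Zbtb46, Batf3 and the deleted Id2 were called lower in Id2 KO, with a summed signal of 20718 to 22909 in Id2 KO and 30019 to 31556 in WT. That sum includes Id2, with geometric mean signals of 390 in Id2 KO and 3411 in WT. Part of the difference thus lies in the deleted gene itself. On the Batf3 KO Zbtb46-GFP+ arrays the monocyte and macrophage sum was 3254 and 2247.5, above that of Id2 KO. Their neutrophil sum was 28544 and 19978, and their mast cell and basophil sum 649 and 855. Their classical DC progenitor sum was 23860 and 27748, which includes the deleted Batf3 (geometric mean signal 138 in Batf3 KO and 970 in WT). The part of these markers in the lower signals of Btg2, Dusp1 and Nr4a1 in Id2 KO was not tested.

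Set against Batf3 KO in Zbtb46-GFP+ cells, Id2 KO had lower Atf3 and Btg2, 2 of the 10 genes, where 0.331% of all genes were called lower. Atf3 gave 82.4 and 83.1 in Id2 KO and 189 and 129 in Batf3 KO, a change of -0.91 ± 0.17 (SE; limma adjusted p = 0.0434). Btg2 gave 589 and 571 in Id2 KO and 1088 and 1009 in Batf3 KO, a change of -0.85 (limma adjusted p = 0.0494). Both calls stood at the threshold: leaving out 1 of the 12 arrays ended that of Atf3 in 9 of 12 cases (limma adjusted p 0.0591 to 0.340) and that of Btg2 in 8 (0.0591 to 0.362), and the fit with the replicate block gave Atf3 an adjusted p of 0.0533. Dusp1 (-1.50, adjusted p = 0.368), Zfp36 (-0.48) and Nr4a1 (-0.48) did not pass, though Dusp1 did with the block for the array of higher percentile (limma adjusted p = 0.0394). The Dusp1 change was -2.19 without Batf3 KO replicate 2 and -0.81 without Batf3 KO replicate 3, neither past the threshold. In this comparison the Id2 KO arrays lay below both Batf3 KO arrays in 6 of the 10 genes, as did 16.7% of all genes.

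Whether a knockout altered the step itself was asked with an interaction term. In Batf3 KO 0 of the 10 genes passed (0.0953% of all genes called; 1 at an unadjusted p under 0.05, against 1.92% of all genes, by limma), with Cd69 at 0.79, the difference between steps of -2.37 in Batf3 KO and -3.15 in WT. In Id2 KO 0 passed as well (0.321% of all genes called; 4 at an unadjusted p under 0.05, against 4.81% of all genes, by limma). Those 4 were Atf3 (-0.73), Nr4a1 (-0.66), Btg2 (-0.62) and Zfp36 (-0.56), with limma adjusted p of 0.547 to 0.879. The step of Atf3, which passed in WT and not in Id2 KO, is thus not shown to differ between them.

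Of the other listed genes, Sgk1, Dusp10 and Dusp6 differed between Id2 KO and WT Zbtb46-GFP+ cells. Sgk1 had a log2 signal of 7.77 in Id2 KO and 9.37 in WT, a change of -1.60 (limma adjusted p = 4.77e-04), while CDPs were level at 6.07 in Id2 KO and 6.06 in WT. Dusp10 changed by -1.04 (limma adjusted p = 0.0485). That call was lost without either Id2 KO Zbtb46-GFP+ array (-1.03 and -1.06) or either WT Zbtb46-GFP+ array (-1.20 and -0.89). It was also lost without either Batf3 KO CDP array and with log2(signal + 16) (limma adjusted p = 0.0630). Dusp6, which acts on ERK, had the opposite sign, at 10.45 in Id2 KO and 8.78 in WT (1.67, limma adjusted p = 0.0440), with an SD of 0.87 between the 2 WT arrays. The Dusp6 call was lost without WT replicate 2 (1.05) and without either Id2 KO Zbtb46-GFP+ array (1.69 and 1.64). It was also lost without any one CDP array and with log2(signal + 16) (limma adjusted p = 0.0730). Both the Dusp6 and the Dusp10 calls were lost when all 15 arrays were fitted with a term for replicate 1 (1.11 and -0.70, limma adjusted p = 0.264 and 0.288). Identical Id2 KO and WT values on the replicate 1 arrays give exactly these sizes. That fit is therefore no separate check of either call.

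The 3 replicate 1 Zbtb46-GFP+ arrays could not serve as a separate check of most of the set. For 7 of the 10 genes the deposited value was identical on the Batf3 KO, Id2 KO and WT arrays, as it was for 11412 of the 19938 genes (57.2%), whereas any 2 of the other 12 arrays shared at most 8 identical values. Egr1 and Nr4a1 held the same value, 31.412, on all 3. Of the genes that varied, Btg2 was 204 in Batf3 KO, 145 in Id2 KO and 204 in WT, Klf6 was 112, 83.2 and 112, and Atf3 was 16.9, 15.3 and 15.9 in the same order. Btg2 on the Id2 KO array was thus below WT by 0.49 on the log2 scale, the same side as on the 12 arrays, without a test. With a term for these 3 arrays in a 15-array fit, the Btg2 change in Id2 KO was -0.80 (limma adjusted p = 0.0119). Klf6 in Id2 KO likewise stood at -0.43 from WT on these arrays, where the 12 arrays gave -0.07. On the 3 arrays 9 of the 10 genes were identical in Batf3 KO and WT. The Btg2 value did differ between Id2 KO and WT there. Because these arrays are on another scale and hold many identical values, neither Btg2 change was taken as a separate check of that on the 12 arrays.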

How the data were processed

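RNA of sorted Zbtb46-GFP+ cells and CDPs was hybridised to 15 Affymetrix arrays, after labelling with the WT Pico kit, per the labels' protocols. The deposited values are probe set intensity on a linear scale. Per the submitters' processing notes, the authors used RMA and Affymetrix Expression Console, with versions and settings not given in the sources used here. Of 28853 probe sets, the 21789 with a single gene symbol in the platform annotation were used (1621 had several and 5443 were unnamed), the brightest per gene, which gave 19938 genes. Of the 21789 probe sets, 21698 matched the RefSeq table of GRCm38.p6 by gene identifier. No background filter was applied, and the number of arrays limits the precision.

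Log2 signals of 12 arrays, 2 per group, entered limma 3.58.1 in R 4.3.3 as 6 group means with empirical Bayes without trend (6 residual degrees of freedom). Tests were two-sided, adjusted by Benjamini-Hochberg over all genes within each of 11 comparisons. The 3 replicate 1 Zbtb46-GFP+ arrays were left out because of their scale. Nothing in the labels says that arrays of a group came from separate animals, so p-values measure only the spread between these arrays, which may be technical. Alternatives were all 15 arrays with and without a term for the 3, centring on the 75th percentile, a filter on the genes of lowest signal, the mean of a gene's probe sets, log2(signal + 16), 2 kinds of block, and leaving out each array. The procedure was tested on simulated data.

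Replicate numbers were checked for pairing by the correlation across genes of within-group differences. Within CDPs it was 0.53 to 0.68 between genotypes. In Zbtb46-GFP+ cells it was 0.48 between Batf3 KO and Id2 KO, and -0.55 and -0.42 between WT and these. Across stages it was 0.40 to 0.63 without WT Zbtb46-GFP+ cells and -0.54 to -0.35 with them. The arrays of all groups thus share a split, with the WT Zbtb46-GFP+ numbers reversed. The numbers as given were therefore not taken to pair the arrays. The main fit has no term for this split. With the block for the array of higher percentile, which follows it, 7277 genes were called in the mean step, against 4650 without. What the split stands for was not tested.

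The 10 genes and all lists were chosen with earlier results of these data known. Named are the 10 genes in each comparison, up to 4 called genes per list with the largest change, Batf3 and Id2, and the 3 genes most correlated with each changed gene. Chosen after their values were seen are the marker and sex-linked genes, S1pr1, Fos, Fosb, Jun, Egr3, Nr4a2, Nr4a3, Zfp36l2, Dusp2, Btg1, Tnf, Hspa1a, Atf4, Ddit3, Srf and Elk1. Promoter windows came from RefSeq.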

Additional observations from a re-analysis of the deposited data

Results flagged for a closer look

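Sgk1 had a different step from CDP to Zbtb46-GFP+ cells in Id2 KO and in WT: 1.70 in Id2 KO and 3.31 in WT on the log2 scale, and the test of the difference itself gave -1.61 ± 0.23 (SE; limma adjusted p = 0.0151). The call was lost without any one of 5 arrays (limma adjusted p 0.0537 to 0.0828) and when all 15 arrays were fitted with a term for replicate 1 (-1.28, 0.242). It was the only one among the 10 genes and the listed relatives whose step passed that test. No group of the 12 arrays had enough arrays to look for a single array standing apart.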

How the results depend on the processing

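With all 15 arrays as they stand, without a term for the 3 on another scale, 1 of the 10 genes was called in the mean step and 0 in the steps of Batf3 KO, Id2 KO and WT, and, in Zbtb46-GFP+ cells, 0 in Id2 KO against WT and against Batf3 KO, where the 12 arrays gave 7, 6, 5, 7, 1 and 2. The median of all genes in the mean step then moved to -0.68, by the construction of that fit, and these changes turned negative: Nr4a1 in Id2 KO (-0.13), Atf3 (-0.020) and Klf6 (-0.16) in the mean step, Klf6 in Batf3 KO (-0.29) and Id2 KO (-0.25), Sesn2 (-1.06; Id2 KO -0.89), Plk3 (-0.32; Batf3 KO -0.14; WT -0.26), Mrtfa (-0.18; Batf3 KO -0.14; Id2 KO -0.26; WT -0.14), Rps6ka3 (-0.0072; Id2 KO -0.20), Map2k1 (-0.66), Relb (Id2 KO -0.10; WT -0.027), Icam1 (WT -0.24), and in Id2 KO Tnfaip3 (-0.050), Bcl3 (-0.19) and Rel (-0.43). In Id2 KO against WT Zbtb46-GFP+ cells 2 genes were called with the block for the higher 75th percentile, and in Id2 KO against Batf3 KO 1 gene was called with the term for the 3 arrays, with centring, with log2(signal + 16) and with the replicate block (12 or 15 arrays), and 3 with the percentile block and with the crossed block. Leaving out 1 array gave 2 to 5 genes in the Id2 KO step, 0 to 2 in Id2 KO against WT and 0 to 2 in Id2 KO against Batf3 KO. Of 115 called results of the 10 genes and the named list genes, 113 kept their call with the replicate block, 107 with the term for the 3 arrays, 102 with centring, 107 with log2(signal + 16), 115 with the filter, the probe set mean or the percentile block, 94 with the replicate block on 15 arrays (chosen after seeing the data; the mean step of Dusp1 was then lost, limma adjusted p = 0.141), and 64 without each of the 12 arrays in turn. Crossing the WT Zbtb46-GFP+ numbers in the block, an alternative chosen after seeing the data, gave 3 genes in Id2 KO against WT and 7359 of all genes in the mean step, against 4650 without a block, 5432 with the numbers as given and 7277 with the percentile block. The crossed block splits the arrays as the percentile block does, with a separate term for each stage. Both splits follow the signals of these arrays, so neither block is a separate check of the other. The Dusp1 step in WT lost its call with the term for the 3 arrays (limma adjusted p = 0.0798), with centring (0.0890), with log2(signal + 16) (0.0720) and with the replicate block (0.0531), and passed with the percentile block (0.00412). The 3 arrays hold the same Dusp1 value, 73.405, so fits that include them are no separate check of Dusp1. Centring moved the median of all genes in the mean step from 0.03 to 0.10. The causes of lost calls were not tested.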
